A study of Mus musculus with 19 samples.

Results

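The genes examined here encode the subunits and isoforms of the mitochondrial respiratory chain and of ATP synthase, with a few assembly factors. Members were all non-control array probes whose gene name began with Nduf, with Sdha, Sdhb, Sdhc or Sdhd, with Uqcr, with Cox and a digit, with Atp5, or with mt-, the prefix of genes on mitochondrial DNA. This rule gave 113 of the 41174 probes and 81 of 29742 gene names. Of these, 108 probes stood for 77 nuclear genes and 5 probes for 4 genes of mitochondrial DNA. The rule itself uses no measured level, but it was chosen with earlier results of these data known.

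The respiratory chain passes electrons from NADH and succinate to oxygen and pumps protons across the inner mitochondrial membrane, and ATP synthase uses the returning protons to make ATP. Its subunits come from both genomes: a small number of core subunits are transcribed within the mitochondrion, and all others are transcribed in the nucleus and imported. In beta cells ATP made from glucose closes potassium channels of the plasma membrane, which leads to calcium entry and insulin release, so this machinery lies on the path from glucose to secretion.

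Islets came from 12-week-old male mice of 2 strains, C57BL/6 in the labels and C57BL6/J in the study (B6), and C57BLKS/J (BLKS). After 48 h of culture at 11 mM glucose, the islets of each mouse, which were not pooled, were kept for 24 h at 5 mM (low) or 20 mM (high) glucose. There were 5 B6 and 5 BLKS mice in low glucose and 5 B6 and 4 BLKS mice in high glucose, 19 mice in all. Their RNA was hybridised in both dye orientations to 20 Agilent arrays, 1 B6 and 1 BLKS mouse to an array in all but 2. All values are log2 signals, the mean of a mouse's readings, and differences are differences of log2 signals. A whole islet preparation holds alpha, delta, vessel and other cells beside beta cells, so that fewer cells of a type and less RNA in each cell cannot be told apart.

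Before any result, 2 libraries went against their labels. Over 106 probes that separated the strains (none of them a member), placed so that 0 is B6 and 1 is BLKS, the library labelled B6 low glucose 4 lay at 1.01 and that labelled BLKS low glucose 5 at -0.0451. The other low glucose libraries lay between -0.0627 and 0.0192 in B6 and between 0.927 and 1.01 in BLKS. The high glucose mice were used to choose the probes and to set 0 and 1, so their own positions are no check. Both libraries were kept under their labels. Counts of called members are also given without both, and so is each described difference whose call changed without them. Defining islet hormone genes were at the top of the scale: the probes for Ins1, Ins2 and Iapp were saturated in all 40 readings. Because a saturated probe can move only with the scale, these 3 probes also measure how far the top of the scale shifted between groups: -0.14 between strains in high glucose, -0.00 in low glucose, 0.04 with glucose in B6 and -0.10 with glucose in BLKS.

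The 108 nuclear probes fell to complex I (NADH dehydrogenase, 44 probes for 31 genes), complex II (succinate dehydrogenase, 5 for 4), complex III (cytochrome bc1, 9 for 6), complex IV (cytochrome c oxidase, 24 for 20) and complex V (ATP synthase, 26 for 16). Of the mitochondrial probes, mt-Nd4 belongs to complex I, mt-Co2 to complex IV and both mt-Atp6 probes to complex V. The probe named mt-Cytb in the files is described there as subunit I of cytochrome c oxidase, so that its target is uncertain between complexes III and IV, and it is called here by the name in the files. A probe was tested if it was well above background in every reading of at least 4 mice. This held for 105 members, of which 100 were above background in all 19 mice and 5 in 4 to 18. The 8 members that were not tested were 1 probe each for Ndufv2, Ndufs4, Ndufab1, Uqcrc2, Cox5a and Cox7b, whose genes had other tested probes, and the only probes for Cox8b and Cox8c.

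Promoters were available from RefSeq (GRCm38.p6, 250 bases before to 50 after the gene start) for 64 of the 77 nuclear genes. Letters of 4 factors known as regulators of respiratory genes were searched on both strands. The NRF1 letters include a free base and are not a palindrome. They stood in 15 of the 64 windows, 23.4% against 5.19% of the windows of all 27025 genes. The ETS family letters (CCGGAAG) stood in 18, 28.1% against 9.93%. The YY1 letters (AAGATGGCG) stood in 7, 10.9% against 1.64%, and those of ERR (TCAAGGTCA) in 2, 3.12% against 0.466%. A match is a description of the letters and not a binding site. The windows shown belong to the 2 complex II subunits that were lower in BLKS in high glucose. Also shown are the 3 genes for ATP synthase subunit c, of which Atp5g1 rose with glucose in both strains. Matches are in capitals.
Sdhb, chr4:140961021-140961320, plus strand, ETS family letters: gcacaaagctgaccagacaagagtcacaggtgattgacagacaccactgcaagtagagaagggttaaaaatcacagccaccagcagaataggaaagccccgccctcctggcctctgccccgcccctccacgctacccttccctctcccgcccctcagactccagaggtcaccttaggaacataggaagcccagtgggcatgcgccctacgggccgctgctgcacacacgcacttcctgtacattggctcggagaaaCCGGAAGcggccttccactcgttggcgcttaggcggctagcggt
Sdhd, chr9:50603800-50604099, minus strand, letters of NRF1, ETS family and ERR in this order: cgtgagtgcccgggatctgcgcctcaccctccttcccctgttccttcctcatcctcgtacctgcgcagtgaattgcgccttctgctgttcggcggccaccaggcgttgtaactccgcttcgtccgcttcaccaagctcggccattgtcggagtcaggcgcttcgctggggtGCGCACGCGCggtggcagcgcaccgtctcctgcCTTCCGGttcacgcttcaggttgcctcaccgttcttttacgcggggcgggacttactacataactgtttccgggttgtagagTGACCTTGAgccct
Atp5g1, chr11:96075582-96075881, minus strand, no match: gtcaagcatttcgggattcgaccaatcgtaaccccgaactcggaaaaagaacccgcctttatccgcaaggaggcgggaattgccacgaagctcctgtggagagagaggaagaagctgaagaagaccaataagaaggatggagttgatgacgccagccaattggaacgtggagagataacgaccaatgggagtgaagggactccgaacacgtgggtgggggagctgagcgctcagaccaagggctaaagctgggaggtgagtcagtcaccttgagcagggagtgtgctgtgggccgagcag
Atp5g2, chr15:102670998-102671297, minus strand, NRF1 letters: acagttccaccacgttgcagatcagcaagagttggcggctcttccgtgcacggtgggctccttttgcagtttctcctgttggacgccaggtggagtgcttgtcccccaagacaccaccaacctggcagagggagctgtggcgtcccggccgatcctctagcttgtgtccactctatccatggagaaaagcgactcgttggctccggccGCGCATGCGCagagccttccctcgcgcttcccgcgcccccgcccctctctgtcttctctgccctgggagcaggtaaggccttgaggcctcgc
Atp5g3, chr2:73911277-73911576, minus strand, letters of ERR and then NRF1: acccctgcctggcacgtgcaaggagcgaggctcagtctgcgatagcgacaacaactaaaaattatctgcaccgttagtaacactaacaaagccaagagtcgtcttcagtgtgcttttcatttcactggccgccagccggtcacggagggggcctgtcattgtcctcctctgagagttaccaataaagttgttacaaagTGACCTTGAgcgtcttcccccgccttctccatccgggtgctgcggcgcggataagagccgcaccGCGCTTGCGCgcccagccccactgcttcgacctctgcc

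Called mitochondrial probes were all lower in BLKS, and called nuclear probes went both ways. In high glucose 16 of the 105 members (15.2%) differed between strains at an adjusted p under 0.05 (limma, Benjamini-Hochberg over 29326 probes), 6 higher and 10 lower in BLKS, against 11.1% of all probes tested (4.98% higher and 6.13% lower). All 5 mitochondrial probes were among the lower members, with a median difference of -0.33. Of the 100 nuclear probes, 11 were called (6 higher and 5 lower), with a median of 0.03 beside 0.01 for all probes. The B6 and BLKS mice that shared arrays were also taken as pairs, with each pair as a fixed block. A fixed block is a term of its own in the fit, where a random block gives all pairs 1 shared correlation. With fixed blocks 27 members (25.7%) were called, 16 higher and 11 lower in BLKS, against 20% of all probes. Without the 2 doubted libraries 18 were called (15.3% of all probes), Ndufs3 and Atp5g1 being added. In low glucose no member was called between strains, and no probe at all (0%), while the unadjusted p was under 0.05 for 22 members and 4709 probes. Leaving out the 2 doubted libraries gave 17 called members, 8 higher and 9 lower, against 15.6% of all probes. The higher ones were Cox6a2, Atp5g1, Cox7a2 (1 probe), Cox6c, Cox5a, Ndufb7 and both Uqcrc1 probes, and the lower ones 4 mitochondrial probes, Sdhb, Sdhd, 1 Sdha probe, 1 Ndufa7 probe and Cox7a2l. With the pairs as fixed blocks and all mice kept, 9 members (8.57%) were called, against 8.04% of all probes: mt-Nd4, mt-Cytb, both mt-Atp6 probes, Sdhd, both Atp5g1 probes, Ndufb7 and 1 Uqcrc1 probe. In that fit the doubted B6 library was paired with BLKS low glucose 4 (1.01 on the strain scale). The doubted BLKS library was paired with B6 low glucose 5 (-0.0627). Each of these 2 pairs thus held libraries of 1 strain by that scale. No paired fit left the doubted libraries out, and the paired low glucose values below carry this limit.

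With glucose, every called mitochondrial probe fell and most called nuclear probes rose. In B6 islets 14 members changed from low to high glucose, 9 up and 5 down, against 9.53% of all probes (5.41% up and 4.12% down). Of these, 12 were nuclear (9 up and 3 down) and 2 mitochondrial (both down). In BLKS islets 16 members changed, 12 up and 4 down, against 11.6% (6.48% up and 5.13% down). The nuclear ones were 12 up and 1 down, and 3 of the 5 mitochondrial probes fell. The median nuclear difference was 0.07 in B6 and 0.04 in BLKS, where the medians of all probes were -0.01 and -0.00, and 70 and 66 of the 100 nuclear probes had a positive difference. Without the doubted libraries 18 members were called in B6 (12.2% of all probes) and 11 in BLKS (9.9%). The B6 call then lost was Atp5j2, and mt-Nd4, mt-Cytb, Cox6a2, Cox5a and 1 Ndufb8 probe were added. The 5 BLKS calls then lost were Ndufs8, Uqcr, Cox6a1, Cox6b and Cox7b. Groups did not overlap at all for 11 members between strains in high glucose (14.4% of all probes), 6 in low glucose (1.2%), 8 with glucose in B6 (7.45%) and 14 in BLKS (13.3%). The 2 glucose comparisons share no mice with each other, but each shares its groups with the strain comparisons.

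**Figure D1:**
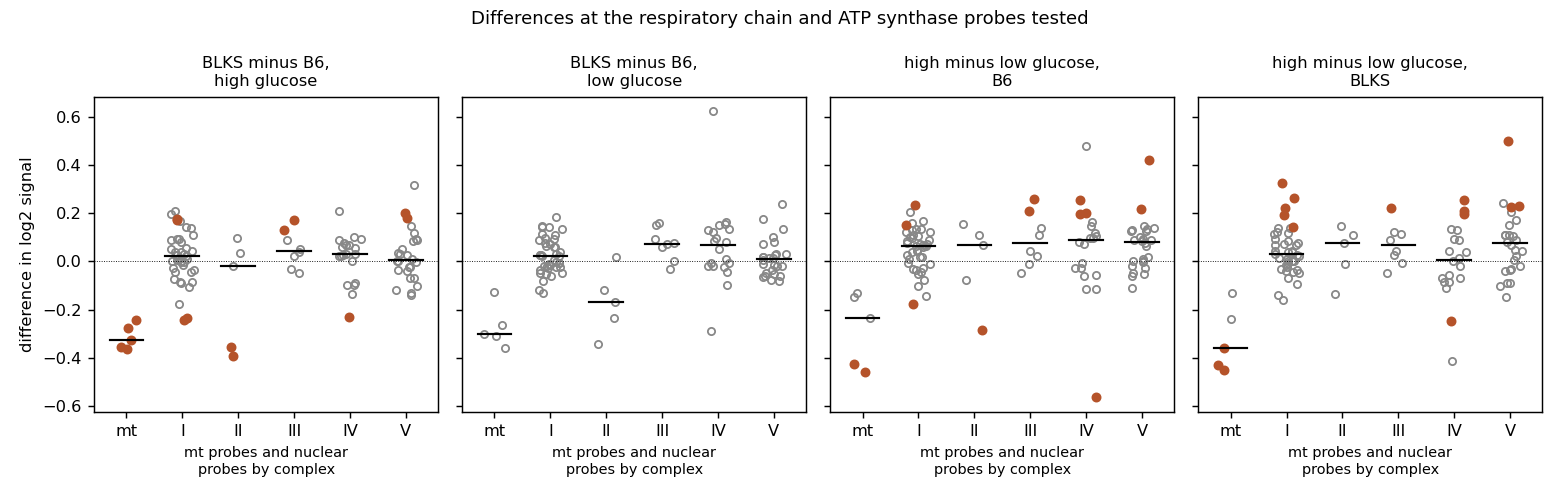
Differences of log2 signal for each tested probe (points) in the comparisons between strains (BLKS minus B6) and between glucose concentrations (high minus low), by complex and genome, with filled points for an adjusted p under 0.05 and a black line at the median. The 5 mitochondrial probes lie below 0 in all 4 comparisons, and nuclear probes lie on both sides of it.

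Each of the 5 mitochondrial probes had its highest mean in B6 islets in low glucose and its lowest in BLKS islets in high glucose. For mt-Nd4, a subunit of the membrane arm of complex I, the signals were 15.07, 14.94, 15.14, 14.93 and 15.04 in the B6 and 14.74, 14.78, 14.68, 14.70 and 14.90 in the BLKS mice in low glucose. In high glucose they were 14.89, 14.97, 14.85, 14.96 and 14.69 in B6 and 14.68, 14.59, 14.58 and 14.66 in BLKS. The strains did not overlap at either concentration.
The difference in high glucose was -0.24 (SE 0.06, adjusted p = 0.0132 by limma) and that in low glucose -0.26 (adjusted p = 0.123; exact permutation p = 0.0079, the smallest that 5 against 5 mice can give). With the pairs as fixed blocks the adjusted p in low glucose was 0.0199. Without the doubted libraries the difference there was -0.32 (adjusted p = 0.00057).

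The probe named mt-Cytb read 15.58, 15.25, 15.54, 15.26 and 15.56 in B6 and 15.08, 15.17, 15.00, 14.97 and 15.17 in BLKS in low glucose. In high glucose it read 15.21, 15.36, 15.11, 15.26 and 15.07 in B6 and 14.79, 15.04, 14.61 and 14.91 in BLKS. Again no BLKS mouse reached the lowest B6 mouse at the same concentration.
BLKS islets were lower by -0.36 in high glucose (SE 0.09, 1.29-fold, adjusted p = 0.0136), a call lost without BLKS high glucose 3 (-0.29, adjusted p = 0.0516). The low glucose difference was -0.36 (adjusted p = 0.123, and 0.0190 with the pairs as fixed blocks), and -0.43 without the doubted libraries (adjusted p = 0.0029).

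For mt-Co2, which carries the copper centre that takes electrons from cytochrome c, the low glucose signals were 16.03, 16.05, 15.79, 15.93 and 15.86 in B6 and 15.79, 15.84, 15.73, 15.76 and 15.91 in BLKS. The high glucose signals were 15.80, 15.93, 15.81, 15.87 and 15.60 in B6 and 15.43, 15.38, 15.42 and 15.56 in BLKS. Only the BLKS mice in high glucose stood below all others.
Their difference from B6 was -0.35 (SE 0.06, 1.28-fold, adjusted p = 0.0030), while in low glucose the difference was -0.13 (adjusted p = 0.317) and without the doubted libraries -0.15 (adjusted p = 0.161). The probe was saturated in 4 of 12 readings of B6 low glucose and 1 of 10 of B6 high glucose but in none of BLKS, so the B6 levels may be understated.

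The 2 probes of mt-Atp6, the subunit of the proton channel, gave like values. One (A_52_P321318) read 13.98, 13.82, 13.90, 13.68 and 13.97 in B6 and 13.33, 13.67, 13.56, 13.54 and 13.72 in BLKS in low glucose, and 13.38, 13.43, 13.53, 13.49 and 13.23 in B6 and 13.00, 13.07, 13.14 and 13.31 in BLKS in high glucose. The other (A_52_P845178) read 14.10, 13.77, 13.92, 13.73 and 13.98 in B6 and 13.51, 13.67, 13.54, 13.55 and 13.73 in BLKS in low glucose, and 13.40, 13.60, 13.38, 13.55 and 13.43 in B6 and 13.03, 13.30, 13.00 and 13.26 in BLKS in high glucose. Both strains fell with glucose on both probes without overlap.
The fall in B6 was -0.46 (SE 0.08, adjusted p = 0.00086) on the former and -0.43 (adjusted p = 0.0012) on the latter, and BLKS islets had -0.43 (adjusted p = 0.0020) and -0.45 (adjusted p = 0.000975), a 1.34- to 1.37-fold decrease. The falls without the doubted libraries were -0.51 and -0.47 in B6 and -0.39 and -0.42 in BLKS, all called. In low glucose the strain differences of -0.31 and -0.30 had an adjusted p of 0.123, which was 0.0330 and 0.0272 with the pairs as fixed blocks, and without the doubted libraries they were -0.39 and -0.38 (adjusted p = 0.0017 and 0.0025). Between strains in high glucose the probes gave -0.28 (adjusted p = 0.0365) and -0.33 (adjusted p = 0.0142). The former call was lost in 11 of 34 other settings, among them Cy5 readings alone (-0.12) and the removal of any of B6 high glucose 1 to 4 (-0.25 to -0.29) or BLKS high glucose 1 to 3 (-0.23 to -0.28). The latter was lost without BLKS high glucose 1 (-0.29) or 3 (-0.28).

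Of the other mitochondrial probes, mt-Co2 also fell with glucose in BLKS (-0.36, adjusted p = 0.0011, and -0.33 without the doubted libraries). In B6 its difference was -0.13, and those of mt-Nd4 and mt-Cytb were -0.15 and -0.24. In BLKS the differences of mt-Nd4 and mt-Cytb were -0.13 and -0.24. None of these passed the test with all mice, and in B6 mt-Nd4 (-0.17) and mt-Cytb (-0.28) passed without the doubted libraries.

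The shift of the saturated probes given above belongs beside these values. Between strains in high glucose the mitochondrial differences of -0.24 to -0.36 stood beside a shift of -0.14 at the top of the scale, which was -0.18 when mice were paired and the mitochondrial differences were -0.29 to -0.41. In low glucose the mitochondrial probes differed by -0.13 to -0.36 beside a shift of -0.00. With glucose in B6 they fell by 0.13 to 0.46 while the saturated probes shifted by 0.04. With glucose in BLKS they fell by 0.13 to 0.45 beside a shift of -0.10, and the part of that shift in the result was not tested. In the authors' own table, which was not scaled between arrays, none of the 5 strain differences in high glucose was called (-0.11 to -0.22).

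**Figure D2:**
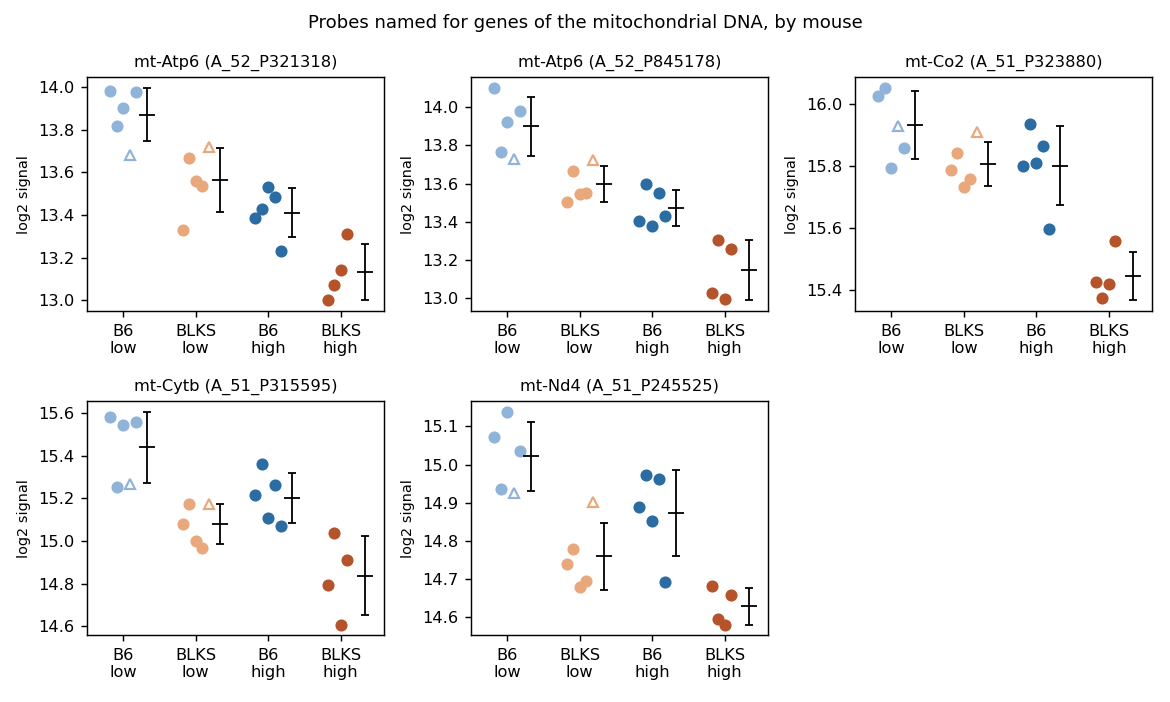
Log2 signal of the 5 mitochondrial probes in each mouse (circles, with open triangles for the 2 libraries that went against their labels), by strain and glucose, with the mean and SD in black. The mean is highest in low glucose B6 and lowest in high glucose BLKS mice on each probe, and both mt-Atp6 probes fall in both strains.

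Complex II, which oxidises succinate and has no mitochondrially encoded subunit, held the clearest nuclear strain difference, in 2 of its 4 genes. Sdhd is a membrane anchor of the complex and Sdhb its iron-sulphur subunit. Sdhd read 11.48, 11.54, 11.52, 11.54 and 11.54 in B6 and 11.15, 11.17, 11.11 and 11.25 in BLKS in high glucose, a gap between strains wider than the spread within either. In low glucose it read 11.55, 11.43, 11.46, 11.19 and 11.45 in B6 and 11.15, 11.13, 11.17, 11.15 and 11.31 in BLKS. The B6 mouse at 11.19 and the BLKS mouse at 11.31 are the doubted libraries.
The difference in high glucose was -0.35 (SE 0.06, 1.28-fold, adjusted p = 0.0014). It was also called in 33 of 34 other settings, and was -0.28 (adjusted p = 0.103) in the authors' table. In low glucose it was -0.23 (adjusted p = 0.123; exact permutation p = 0.0159), with an adjusted p of 0.0266 with the pairs as fixed blocks, and without the doubted libraries -0.32 (adjusted p = 5.9e-06).

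Sdhb read 10.26, 10.35, 10.37, 10.34 and 10.44 in B6 and 9.88, 10.05, 9.90 and 10.01 in BLKS in high glucose. In low glucose it read 10.49, 10.21, 10.37, 9.74 and 10.17 in B6 and 9.67, 9.72, 9.86, 9.85 and 10.16 in BLKS, where the extremes at 9.74 and 10.16 are again the doubted libraries.
In high glucose the strains did not overlap and differed by -0.39 (SE 0.11, 1.31-fold, adjusted p = 0.0316; exact permutation p = 0.0079). The difference stayed between -0.35 and -0.42 in 34 other settings, but 11 of them lost the call. These were the paired fit (-0.37, adjusted p = 0.070), no scaling, the authors' table, leaving out the later-scanned arrays, and leaving out B6 high glucose 2 (-0.39), 3 (-0.39), 4 (-0.40) or 5 (-0.37) or BLKS high glucose 1 (-0.37), 3 (-0.37) or 4 (-0.41). The spread is shared with low glucose, and without the doubted libraries the adjusted p was 0.00029 in high glucose and 2.0e-05 in low glucose, where the difference was -0.53. With them it was -0.34 (adjusted p = 0.150, and 0.0878 and 0.0171 with the pairs as fixed and as random blocks).

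The other complex II genes were not called between strains with all mice and no blocks. Sdhc, the second membrane anchor, had strain differences of 0.10 and 0.02 in high and low glucose. With the pairs as fixed blocks the high glucose difference was 0.11 and was called, higher in BLKS (adjusted p = 0.0442). Sdha, the flavoprotein with the succinate site, had differences of 0.04 and -0.02 in high glucose on its 2 probes. In low glucose the differences were -0.12 and -0.17, at an adjusted p of 0.259 and 0.181 that was 0.0682 and 0.0546 with the pairs as fixed and 0.0322 and 0.0145 with them as random blocks. With glucose in B6, 1 Sdha probe (A_52_P109503) fell from 9.94, 9.63, 9.92, 9.71 and 9.86 to 9.44, 9.55, 9.58, 9.58 and 9.497, a difference of -0.28 (adjusted p = 0.0046) that held in all 33 other settings. The other probe (A_51_P410823) had -0.08 (adjusted p = 0.438), so the probes of this gene disagree. In low glucose the former probe was also lower in BLKS without the doubted libraries (-0.22, adjusted p = 0.0306).

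**Figure D3:**
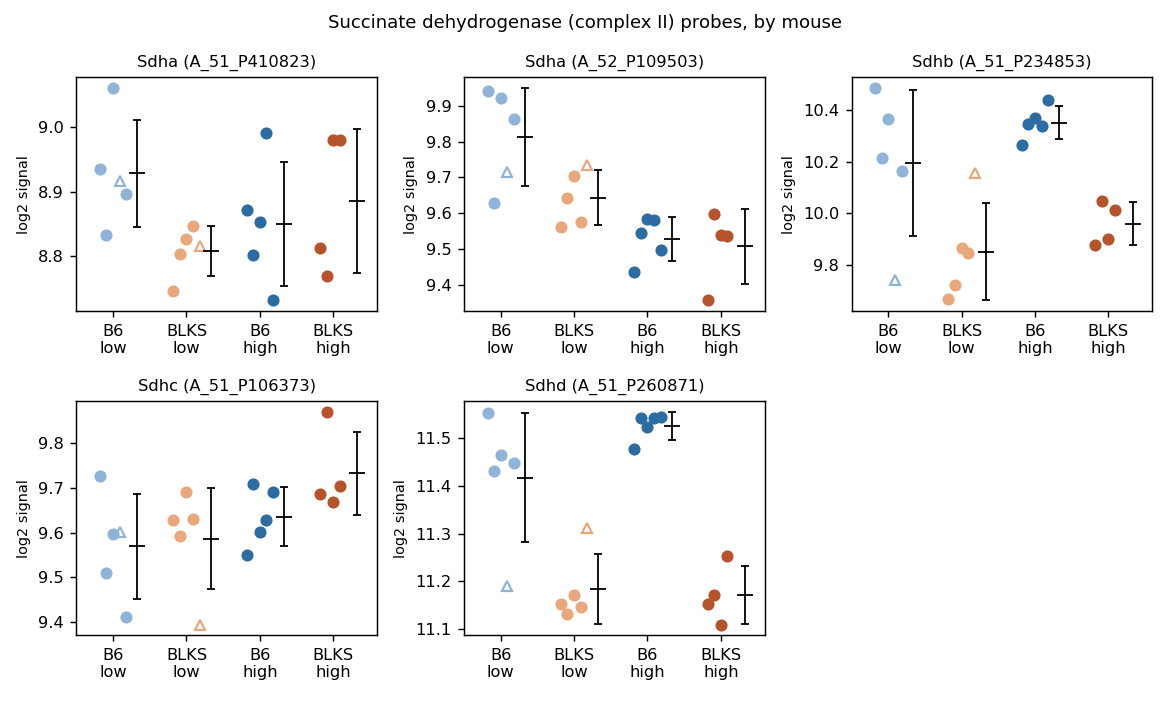
Log2 signal of the complex II probes in each mouse (circles, open triangles for the 2 doubted libraries) by strain and glucose, with the mean and SD in black. For Sdhd and Sdhb the B6 and BLKS mice in high glucose do not overlap, and in low glucose the triangles lie apart from the other mice of their labelled strain.

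Of the 41 tested nuclear probes of complex I, 4 (9.76%) differed between strains in high glucose without blocks, beside the 11.1% of all probes. Both Ndufa7 probes, for an accessory subunit, were lower in BLKS by -0.24 (adjusted p = 0.0215 and 0.0350). Ndufs7 and Ndufs8, which hold iron-sulphur clusters of the arm that carries electrons to ubiquinone, were higher, each by 0.17 (adjusted p = 0.034 and 0.0473). Of 34 other settings, Ndufs8 lost its call in 16, Ndufs7 in 7 and the Ndufa7 probes in 6 (A_51_P263756) and 10 (A_52_P347591). With the pairs as fixed blocks, which called 20% of all probes, 1 probe each of Ndufc2, Ndufv2, Ndufb8, Ndufs3 and Ndufab1 was also higher, by 0.13 to 0.21. In the same fit 1 Ndufb2 probe was lower, by -0.10. The Ndufa7 probe on which the strains did not overlap (A_52_P347591) read 12.19, 12.31, 12.13, 12.13 and 12.32 in B6 and 12.00, 12.12, 11.85 and 11.93 in BLKS.

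With glucose 5 of the 41 complex I probes (12.2%) changed in BLKS, all upward, beside 11.6% of all probes, and 3 (7.32%) in B6, 2 up and 1 down, beside 9.53%. Ndufab1, the mitochondrial acyl carrier protein, rose on 1 of its 3 tested probes (A_51_P208801) in both strains. In B6 it went from 7.12, 7.03, 6.99, 7.13 and 7.002 to 7.33, 7.23, 7.24, 7.20 and 7.45. In BLKS it went from 7.22, 6.98, 7.15, 7.27 and 7.03 to 7.51, 7.60, 7.30 and 7.42. The rise was 0.23 in B6 (SE 0.06, adjusted p = 0.0258, lost in 9 of 33 other settings), and BLKS islets rose by 0.33 (adjusted p = 0.0038, lost in 2), with no overlap between concentrations in either strain. The rises were 0.25 and 0.30 without the doubted libraries, both called. Its other 2 probes had -0.04 and 0.01 in B6 and 0.04 and 0.07 in BLKS.

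Ndufv2, a subunit beside the site of NADH oxidation, went from 9.68, 9.67, 9.80, 9.76 and 9.54 to 9.84, 10.002, 9.94 and 10.01 in BLKS, a rise of 0.26 (adjusted p = 0.0027; 0.22 and called without the doubted library). Its B6 difference was 0.07 (adjusted p = 0.455), and the difference of the 2 responses did not pass the test (0.19, adjusted p = 0.948). Ndufs8 (0.19), 1 Ndufb8 probe (0.22) and the assembly factor Ndufaf1 (0.14) also rose in BLKS, and 1 Ndufc1 probe (0.15) rose in B6. The Ndufc1 call was lost in 16 of 33 other settings, among them the pairs as random blocks (adjusted p = 0.0665). Ndufs8 lost its call in 8 of 33 other settings, among them without the doubted library (0.16, adjusted p = 0.0698). Ndufb4 was the complex I gene that fell, in B6 (-0.18, adjusted p = 0.0328, lost in 9 of 33 other settings).

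In complex III, Uqcrc1, a core subunit of the matrix side, was higher in BLKS on both of its probes. One (A_51_P109828) read 10.99, 10.97, 11.05, 10.97 and 11.02 in B6 and 11.17, 11.06, 11.11 and 11.19 in BLKS in high glucose, a small difference without overlap. The difference was 0.13 (SE 0.04, adjusted p = 0.0222) on this probe and 0.17 (adjusted p = 0.0293) on the other, with the call lost in 6 and in 10 of 34 other settings. In low glucose neither was called (0.09 and 0.15), and without the doubted libraries both were (0.12 and 0.18). With glucose, the small subunit Uqcr rose in both strains (by 0.21 in B6, at an adjusted p of 0.0344, and by 0.22 in BLKS, at 0.0277), and Uqcrb, the ubiquinone-binding protein, rose in B6 (0.26, adjusted p = 0.0251). Uqcr had, without the doubted libraries, 0.22 in B6, called, and 0.21 in BLKS (adjusted p = 0.0613), and with the pairs as random blocks its B6 call was lost (adjusted p = 0.0810). The call of Uqcr was lost in 12 and 9 and that of Uqcrb in 9 of 33 other settings.

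In complex IV, Cox7a2l fell with glucose in B6 from 10.59, 10.09, 10.75, 9.90 and 10.44 to 9.57, 9.72, 9.82, 10.22 and 9.61. The fall was -0.56 (SE 0.15, 1.48-fold, adjusted p = 0.0209), the largest of any called member in this comparison, and the groups overlapped through 1 mouse in high glucose at 10.22. In BLKS the values were 10.19, 10.08, 9.93, 9.83 and 10.30 in low and 9.497, 9.55, 9.87 and 9.69 in high glucose, a difference of -0.41 (adjusted p = 0.102). The B6 call was lost without B6 low glucose 3 (-0.46) or 5 (-0.54), without B6 high glucose 1 (-0.51) or 5 (-0.52), or without the later-scanned arrays (-0.52), and without both doubted libraries the fall was -0.68 (adjusted p = 0.0028).

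Of the other nuclear complex IV probes called with glucose, all but 1 rose. Cox7b went from 10.10, 10.33, 10.15, 10.31 and 10.13 to 10.51, 10.51, 10.55, 10.32 and 10.39 in B6 on probe A_51_P160664. It rose by 0.25 in B6 (adjusted p = 0.0081) and by 0.21 in BLKS (adjusted p = 0.032, lost in 9 of 33 other settings, among them the pairs as random blocks, at 0.0621, and without the doubted libraries, at 0.0712), while its other tested probe had -0.12 and -0.07. Cox6b rose by 0.20 in both strains (adjusted p = 0.0406 and 0.0498), calls lost in 15 of 33 other settings in B6 and 23 in BLKS. Cox11, a copper chaperone needed for assembly, rose by 0.20 in B6 (lost in 9 of 33). Cox6a1 rose by 0.25 in BLKS (adjusted p = 0.0436, lost in 16 of 33). The BLKS calls of Cox6b (0.16, adjusted p = 0.118) and Cox6a1 (0.20, adjusted p = 0.101) were lost without the doubted library. Cox6c went the other way in BLKS, from 12.75, 12.62, 12.62, 12.62 and 12.49 to 12.51, 12.24, 12.40 and 12.35. This was a fall of -0.25 (adjusted p = 0.0186, and -0.28 without the doubted library) that was lost without mouse 1 of BLKS low glucose (-0.22) or without mouse 2 (-0.20) or 4 (-0.24) of BLKS high glucose. Between strains in high glucose, Cox5b alone among the nuclear genes of complex IV was called without blocks, lower in BLKS by -0.23 (adjusted p = 0.0206). That call was lost in 6 of 34 other settings. With the pairs as fixed blocks Cox6a1 was called too, higher in BLKS by 0.21 (adjusted p = 0.0354).

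Cox6a2, the heart and skeletal muscle form of a subunit whose common form is Cox6a1, varied widely among mice in low glucose. It read 11.66, 11.76, 11.79, 12.94 and 11.45 in B6 and 13.14, 12.80, 12.61, 12.29 and 11.88 in BLKS, and the B6 mouse at 12.94 and the BLKS mouse at 11.88 are the doubted libraries. In high glucose it read 12.40, 12.49, 12.25, 12.56 and 12.31 in B6 and 12.53, 12.44, 12.54 and 12.39 in BLKS. The strains thus overlapped in high glucose, and in low glucose they overlapped through the doubted libraries alone.
With all mice the low glucose difference was 0.62 (SE 0.23, 1.54-fold, adjusted p = 0.192, and 0.129 and 0.0346 with the pairs as fixed and as random blocks; exact permutation p = 0.111) and the glucose response 0.48 in B6 and -0.07 in BLKS (adjusted p = 0.235 and 0.902). Without the doubted libraries the same values were 1.04 (adjusted p = 1.6e-05), 0.74 (adjusted p = 0.00057) and -0.23 (adjusted p = 0.310). The difference between the 2 glucose responses was then -0.97, with an adjusted p of 0.0564 that missed the threshold.

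The other tissue-restricted forms of complex IV subunits were dim. Cox4i2, the lung form, was above background in 15 of 19 mice, and its differences in the 4 comparisons lay between -0.03 and 0.00. Cox6b2, the testis form, and Cox7a1, the heart form, had differences of -0.08 to 0.05 and 0.04 to 0.16, none of them called. Cox8b and Cox8c, named above, could not be tested.

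**Figure D4:**
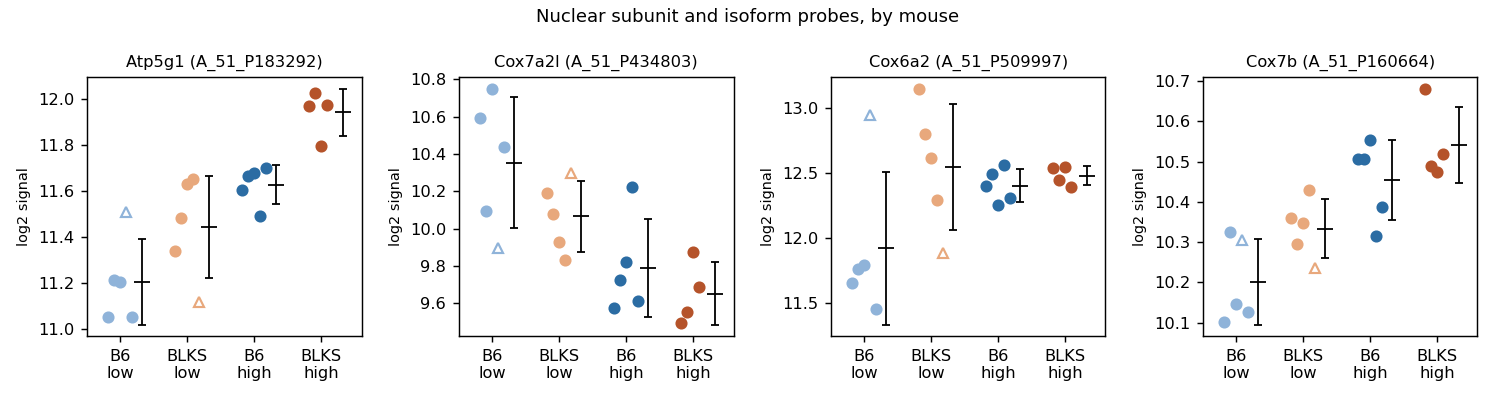
Log2 signal of Atp5g1 (A_51_P183292), Cox7a2l, Cox6a2 and Cox7b (A_51_P160664) in each mouse (circles, open triangles for the 2 doubted libraries) by strain and glucose, with the mean and SD in black. Atp5g1 rises with glucose in both strains, and the triangles of Cox6a2 in low glucose lie apart from the other mice of their labelled strain.

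In complex V, Atp5g1 had the largest nuclear rise with glucose among called members in both strains. It is 1 of 3 genes for subunit c, the proton-carrying ring of ATP synthase, whose mature protein is the same from all 3. Its probe A_51_P183292 read 11.05, 11.21, 11.20, 11.51 and 11.05 in B6 and 11.34, 11.48, 11.63, 11.65 and 11.12 in BLKS in low glucose. In high glucose it read 11.61, 11.67, 11.68, 11.49 and 11.70 in B6 and 11.97, 12.03, 11.80 and 11.98 in BLKS, so that concentrations overlapped only through the doubted B6 library at 11.51.
B6 islets rose by 0.42 (SE 0.10, 1.34-fold, adjusted p = 0.0076) and BLKS islets by 0.50 (1.41-fold, adjusted p = 0.0029), and without the doubted libraries by 0.50 and 0.42, both called. It was called in 32 of 33 other settings in B6, where the authors' table gave 0.39 (adjusted p = 0.101), and in all 33 in BLKS. BLKS also lay above B6 in high glucose without overlap, by 0.32, which just missed the threshold (adjusted p = 0.0512; exact permutation p = 0.0079) and passed without the doubted libraries (adjusted p = 0.0031) and with the pairs as fixed blocks (0.33, adjusted p = 0.0082). The same fit called the low glucose difference of 0.24 (adjusted p = 0.0421). Its second probe, A_52_P779909, had glucose differences of 0.14 and 0.11 that were not called.

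The other subunit c genes moved less. Atp5g2 on probe A_51_P417399 rose with glucose in BLKS from 12.50, 12.57, 12.70, 12.66 and 12.50 to 12.83, 12.91, 12.69 and 12.83, a rise of 0.23 (adjusted p = 0.0084; 0.21 and called without the doubted library), and was higher in BLKS than in B6 in high glucose by 0.20 (adjusted p = 0.0223, lost in 8 of 34 other settings). In B6 its rise was 0.13 (adjusted p = 0.121). Its 2 other probes had -0.03 and 0.15 in B6 and 0.08 and 0.02 in BLKS. Atp5g3 had 0.13 in B6 (adjusted p = 0.188) and 0.04 in BLKS. In the promoter windows printed above, the letters of NRF1 stood in Atp5g2 and Atp5g3 and not in Atp5g1.

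Atp5d, a subunit of the central stalk, rose with glucose in BLKS (0.22, adjusted p = 0.0063; 0.20 and called without the doubted library) and was higher in BLKS in high glucose (0.18, adjusted p = 0.0270, lost in 10 of 34 other settings). Atp5j2, in the membrane part, rose in B6 on 1 of 2 probes (0.22, adjusted p = 0.0484), a call lost in 21 of 33 other settings, among them without the doubted library (0.22, adjusted p = 0.0600). Atp5b, the catalytic subunit, had differences between -0.03 and 0.09, none of them called.

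Genes with more than 1 tested probe often had 1 probe called and another not. Of the 21 such nuclear genes, 6 had a called probe with glucose in B6 and 5 in BLKS, and in none of them were all probes called. In 3 and 2 of these genes, another probe had the opposite sign. Between strains in high glucose, 3 genes had a called probe and in 2 of them (Uqcrc1 and Ndufa7) all probes were called.

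Whether the strains differed in their response to glucose was tested directly. No member passed (0.0409% of all probes did, 12 in number), and 6 members had an unadjusted p under 0.05: Ndufs7, Ndufv2, mt-Co2, Cox6c, Ndufs8 and Cox5b. The smallest adjusted p was 0.916, for Ndufs7, whose glucose difference was 0.11 in BLKS and -0.08 in B6. Without the doubted libraries no member passed either, where 0.058% of all probes did. Responses called in 1 strain only are therefore not shown to differ between strains.

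Levels were also set side by side within mice. The median over the 5 mitochondrial probes of a mouse's deviation from each probe's mean was 0.17 to 0.42 in B6 and -0.08 to 0.15 in BLKS in low glucose, and -0.14 to 0.14 in B6 and -0.37 to -0.20 in BLKS in high glucose. Low glucose B6 mice lay above all other groups, and high glucose BLKS mice below all others. The same median over the 5 probes of complex II, a nuclear set of the same size, ran from -0.18 to 0.22. That over the 100 nuclear probes, a much larger set, stayed between -0.09 and 0.09 in every mouse, with the low and high glucose B6 mice overlapping, as did every other pair of groups.

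**Figure D5:**
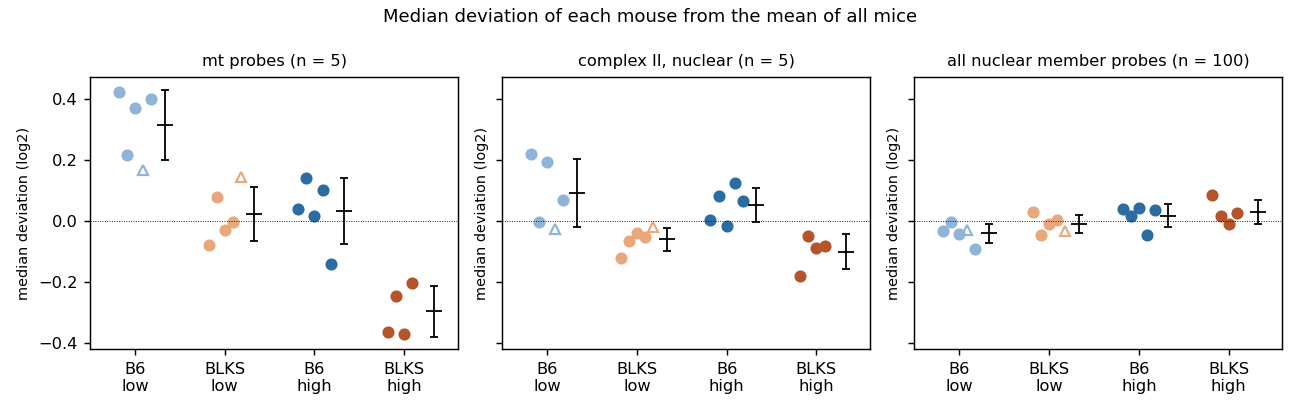
Median deviation of log2 signal from each probe's mean in each mouse (circles, open triangles for the 2 doubted libraries) for the 5 mitochondrial, the 5 complex II and all 100 nuclear probes, by strain and glucose, with the mean and SD in black. The medians run from -0.37 to 0.42, from -0.18 to 0.22 and from -0.09 to 0.09.

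Genes that work with the chain were read from 1 probe a gene, the brightest, against 11.9% of all genes called between strains in high glucose, 0% in low glucose, 10.3% with glucose in B6 and 12.2% in BLKS. Of 13 tested electron carriers, carrier-linked enzymes and further assembly factors, 3 were higher in BLKS in high glucose (Dhodh, Surf1 and Bcs1l, by 0.17 to 0.21) and 2 were lower. The lower ones were Gpd2, the mitochondrial glycerol phosphate dehydrogenase that passes cytosolic reducing equivalents to the chain (-0.47, adjusted p = 0.0055), and Etfa (-0.16). With glucose, Cycs, the cytochrome c that links complexes III and IV, rose by 0.49 in B6 and 0.46 in BLKS (adjusted p = 0.00051 and 0.0013). It was the only call of the list in B6, while in BLKS Surf1 (0.31), Cyc1 (0.24) and Bcs1l (0.15) also rose and Gpd2 fell (-0.33).

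Of 10 tested genes of nucleotide and phosphate exchange, none differed between strains in high glucose. With glucose Ckmt1, the mitochondrial creatine kinase, rose in B6 (0.25) and BLKS (0.30), and the outer membrane channel Vdac1 fell in B6 (-0.39, adjusted p = 0.0139). Of 18 genes of pyruvate dehydrogenase and the citric acid cycle, 2 were lower in BLKS in high glucose: Fh1, fumarase, by -0.55 (adjusted p = 0.0012), and Pdhb, a subunit of pyruvate dehydrogenase, by -0.41 (adjusted p = 0.00029). With glucose Pdhb (0.32) and Suclg1 (0.20) rose and Pcx, pyruvate carboxylase, fell (-0.45) in B6, and Pcx (-0.33) and Fh1 (-0.32) fell in BLKS. Of 16 tested regulators of respiratory genes and mitochondrial DNA, Tfb1m was higher in BLKS in high glucose (0.14). Pprc1, a coactivator of the PGC-1 family, rose with glucose in B6 (0.34) and BLKS (0.25), and Lrpprc, which stabilises mitochondrial mRNAs, fell in both (-0.21 and -0.20), a call that was lost in BLKS without the doubted library (-0.16, adjusted p = 0.113).

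Markers of other islet and exocrine cell types moved with some of these comparisons. Between strains in high glucose, 3 of 5 mesenchymal markers were lower in BLKS (Col1a1 -1.34, Col1a2 -1.05 and Col3a1 -0.95), with a summed signal of 3731 to 7363 in B6 and 1923 to 3578 in BLKS. So were 2 of 3 endothelial markers (sums 454 to 557 and 352 to 412) and 1 of 4 macrophage markers (2119 to 3294 and 1574 to 2065). The median difference over the 4 macrophage markers was 0.03, so the lower sum does not stand for all of them. Of 7 acinar markers 1 was higher (1842 to 2156 and 1954 to 2516). Of 7 beta cell markers 1 was lower, the glucose transporter Slc2a2 (-0.59), and the summed beta cell signal overlapped between strains. That sum includes Ins1, Ins2 and Iapp, whose probes were saturated in all 40 readings. Its overlap therefore cannot show whether the beta cell signal differed. No alpha, delta, PP, duct or leukocyte marker was called. In high glucose the sums were 61196 to 75248 (B6) and 57915 to 67303 (BLKS) for alpha markers. For delta markers they were 60675 to 70207 and 57524 to 67236. These ranges were alike though they came from 4 and 2 genes, so hormone probes near the top of the scale may make up most of them. The lack of a call there cannot show that alpha or delta signal did not differ. With glucose, 1 acinar and 1 endothelial marker fell in B6, and 2 acinar, 2 endothelial, 1 macrophage and 1 beta cell marker (Slc2a2, -0.74) fell in BLKS. Without the doubted libraries 1 acinar, 1 endothelial, 1 beta cell and no macrophage marker fell in BLKS, and in B6 Slc2a2 was called too (-0.42). Between strains in low glucose no marker was called with all mice. Leaving out the doubted libraries there, 2 of 3 endothelial and 1 of 4 macrophage markers were lower in BLKS, and 1 of 7 acinar and 1 of 2 duct markers were higher. The part of these markers in the member differences was not tested.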

How the data were processed

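Islet RNA of 19 mice in 4 groups was measured on 20 Agilent 2-colour arrays. The authors extracted intensities with Agilent Feature Extraction (8.1 per the submitters' notes and 9.5.3.1 per the file headers), without background subtraction and with linear and LOWESS dye normalization, and the deposited processed intensity of each dye was used here. A deposited table of log2 values, not scaled between arrays, matched these intensities and served as an alternative.

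Spots called outliers (12 to 38 per array and dye) were left out. Log2 intensities were Aquantile-normalized between arrays, and the readings of a mouse were averaged. A probe was tested if well above background in every reading of at least 4 mice. The Cy3 call passed a median of 83.9% of negative control probes and the Cy5 call 0.318%, so this filter rests largely on Cy5. Groups were fitted together in limma 3.58.1 (R 4.3.3), without a block, with Benjamini-Hochberg adjustment at 0.05 over all 29326 probes. Exact permutation tests were 2-sided. The methods do not average dyes, and their model was run as an alternative, with other scalings and filters, single dyes, array pairs as random or fixed blocks, and each mouse left out. B6 and BLKS mice of 1 number and glucose concentration shared arrays per the labels. The deviations of such pairs correlated by 0.0201 to 0.694, with a median of 0.482, while B6 and BLKS mice that shared no array had a median of -0.029. In low glucose the 2 pairs that held a doubted library correlated by 0.603 and 0.658, and the others by 0.0201 to 0.195. Of the arrays, 2 were scanned on a later day than the others. The number of mice limits the precision. The design text counts 6 B6 mice in low glucose, and 5 were analysed here.

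Members and gene lists were chosen with earlier results of these data known. Named were all mt- probes, the probe of highest mean signal in each complex, tissue-restricted isoforms and called genes of the other lists. The 6 largest called changes each way per comparison were named too, with all tested probes of those genes. Ndufa7, Cox5b, Cox6b, Cox11, Ndufb8, Ndufc1, Ndufaf1, Cox5a, Cox7a2, Ndufb7, Ndufs3, Ndufc2 and Ndufb2 were added after their values were seen. Tests were checked on simulated data.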

Additional observations from a re-analysis of the deposited data

Results flagged for a closer look

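Of 160 groups of named member probes checked, 9 held a mouse far from the others of its group, by the gap to the nearest mouse as a share of the group's range. Chance gives about 1 in 20 such groups.

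Both Cox6a2 in the library labelled B6 low glucose 4 (share 0.772, 12.94 against a mean of 11.67 for the others) and Sdhd in the library labelled BLKS low glucose 5 (0.783, 11.31 against 11.15) are in libraries that went against their labels. BLKS low glucose 1 stood high for Ndufs5 (0.712, 13.16 against 12.85), Atp5j2 (0.711, 12.34 against 12.16) and the Atp5g2 probe A_52_P844857 (0.757, 7.39 against 7.09). Uqcrh in BLKS low glucose 3 was low (0.711, 12.66 against 12.76), as was Ndufb4 in BLKS low glucose 4 (0.719, 11.22 against 11.31). In high glucose, BLKS mouse 2 was low for the Uqcrc1 probe A_51_P109835 (0.916, 10.33 against 10.48) and BLKS mouse 1 for Cox4i2 (0.924, 6.02 against 6.12). Of these, the value of Cox6a2 was the only one more than 1 log2 unit from the others' mean.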

How the results depend on the processing

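Of the 46 member results called with all mice, 521 of 660 values under other settings and 703 of 874 values with 1 mouse left out kept the call, 139 and 171 lost it, and none changed sign. Counts of called members moved with the processing, and the share of all probes called, given in brackets, moved with it. Between strains in high glucose the 16 calls (11.1%) became 3 (5.36%) without scaling between arrays, 0 (3.19%) in the authors' table (where the nuclear median was 0.08 and that of all probes -0.00), 8 (9.45%) in Cy3 alone, 29 (22.5%) in the methods' model on single dye values, 30 (25.2%) when array pairs entered as a random block and 27 (20%) as a fixed replicate block. In low glucose the 0 calls (0%) became 8 (4.26%) in Cy3 alone, 17 (12.6%) in the methods' model, 19 (16.1%) and 9 (8.04%) with the random and fixed replicate block, and 17 (15.6%) without both doubted libraries. With glucose in B6 the 14 calls (9.53%) became 5 (5.47%) without scaling, 4 (4.13%) in the authors' table, 8 (6.86%) in Cy5 alone, 5 (7.82%) without the later-scanned arrays and 30 (18.9%) in the methods' model. In BLKS the 16 calls (11.6%) became 5 (7.33%) without scaling, 2 (3.4%) in the authors' table and 31 (22.6%) in the methods' model. The methods' model counts the 2 dyes of a mouse as separate samples. The cause of the other changes was not tested.

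With 1 mouse left out the calls ranged from 7 to 18 between strains in high glucose, 0 to 10 in low glucose, 5 to 14 with glucose in B6 and 10 to 19 in BLKS, and stayed at 0 for the difference of responses. The high glucose strain count was 10 without B6 high glucose 1, 9 without B6 high glucose 4, 7 without BLKS high glucose 1 and 8 without BLKS high glucose 3 or 4. The low glucose strain count was 10 without B6 low glucose 4 and 10 without BLKS low glucose 5. The B6 glucose count was 6 without B6 low glucose 3 or 5, 7 without B6 high glucose 1 or 2 and 5 without B6 high glucose 5. The BLKS glucose count was 10 without BLKS high glucose 4. Cox6a2 had a glucose difference in BLKS of -0.07 that became 0.027 in the authors' table and 0.010 in Cy3 alone, and ranged from -0.23 (without BLKS low glucose 5) to 0.081 (without BLKS low glucose 1) with 1 mouse left out.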
